A study of Mus musculus with 6 samples.

Results

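The miRNAs mmu-miR-26a, mmu-miR-186 and mmu-miR-340-5p are 3 that have been reported to restrain the formation of osteoclasts, the bone-resorbing cells that arise by fusion of myeloid precursors. Their guide-strand assays were taken by name from an array of 709 mouse miRNA assays, and all 3 were among the 95 with a value in every sample. The other 614 assays were listed as Null in all 6 samples and 0 were Null in only some. The array was read by SYBR Green real-time PCR in osteoclasts that had been sorted magnetically from mouse bone marrow as OSCAR+CTR+ cells. OSCAR is the osteoclast-associated receptor and CTR the calcitonin receptor, and neither messenger RNA was measured here, so the cell label could not be checked against them. One group of 3 samples, OCmiR-Intact, came from control mice with intact osteoclast miRNAs and is called intact here. The other group of 3, OCmiR-KD, had its osteoclast miRNAs knocked down and is called knockdown. No source used here gives the allele or agent behind the knockdown, or the strain and age of the mice. The design text mentions pooling the RNA of 3 mice per group, so a group's samples could be single mice or repeated runs of 1 pool. The p-values then reflect no more than the scatter among these samples, which could be technical.

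A miRNA guides the silencing complex to messenger RNAs that pair with its seed, the bases from position 2 to 8 of the mature strand, and the paired messages are repressed. Osteoclast formation is driven by RANKL and its downstream transcription factors, and a miRNA is said to restrain it when raising the miRNA lowers the number of osteoclasts formed. miR-340-5p has been reported to act in this way through Mitf, a transcription factor of osteoclast genes, and miR-26a through connective tissue growth factor.

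The mature sequences on the array were equal to those of RefSeq for all 3 members and for miR-26b and miR-340-3p. They are shown because miR-26a and miR-26b resemble each other enough to bear on how their values can be read, while miR-186 and miR-340-5p have no such relative on the array. Each is written 5′ to 3′ with the seed in capitals.
miR-26a: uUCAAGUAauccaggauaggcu
miR-26b: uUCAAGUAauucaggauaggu
miR-186: cAAAGAAUucuccuuuugggcu
miR-340-5p: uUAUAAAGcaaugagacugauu
miR-340-3p: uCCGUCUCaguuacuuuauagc
miR-26a and miR-26b share the seed UCAAGUA, and miR-26b was the only other assay of the 709 with it. Counted from the 5′ end, miR-26b differs from miR-26a by C11U and C21U and by a length of 21 instead of 22 bases. The 2 assays are separate but neighbouring wells of plate 1 (1B08 and 1B09), and whether their primers tell the 2 miRNAs apart was not tested. The seeds of miR-186 (AAAGAAU) and miR-340-5p (UAUAAAG) were found in 0 other assays. miR-340-5p is poor in G and C, which make up 27.3% of its bases against a median of 47.6% over the 95 measured miRNAs, where only 2 were at or below 27.3%. In GRCm38.p6, as RefSeq places them, mature miR-26a comes from a pair of hairpins on the plus strand, Mir26a-1 at chr9:119031811-119031832 within the span of Ctdspl and Mir26a-2 at chr10:126995543-126995564 within Ctdsp2. miR-26b lies at chr1:74394324-74394344 within Ctdsp1, another gene of the same small phosphatase family. miR-186 lies at chr3:157544285-157544306 within Zranb2, and miR-340-5p at chr11:50069720-50069741 within Rnf130, all on the plus strand. The reference tables give gene spans only, and these hairpins are known to lie in introns of their host genes. The array cannot say which of the 2 miR-26a hairpins gave the signal.

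Levels are given as minus delta Ct. Ct is the PCR cycle at which fluorescence crosses a threshold, and delta Ct is that of the miRNA minus that of U6, a small nuclear RNA, in the same sample and plate. A level of 0 is therefore equal to U6, and 1 unit more stands for about 2 times as much template if each cycle doubles it. All 3 members and miR-26b were on plate 1, where the Ct of U6 itself was 29.7 ± 0.547 cycles in the intact group and 30.3 ± 0.906 cycles in the knockdown group (SD, n = 3 per group).

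One property of the deposited values bears on every difference that follows. On the linear scale relative to U6 of plate 1, the 3 knockdown values averaged 1 to within 0.001 in 88 of the 95 measured assays (92.6%), against 0 in the intact samples. All 3 members and miR-26b were among the 88. For miR-186 the linear knockdown values were 1.04, 0.981 and 0.981, for miR-340-5p 1.11, 0.733 and 1.15, and for miR-26a 1.29, 0.664 and 1.05. No source used here says which step set these means. The knockdown mean of a member is thus no measurement of its own, and "fell" below means only that the deposited knockdown levels were lower than the deposited intact levels. In such assays the size of the difference follows the intact level. Their intervals and p-values reflect the scatter of the deposited values and do not bound a fall in the cells, also for members that passed. Fewer cells of a type and less RNA per cell cannot be told apart in these bulk samples either.

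**Figure D1:**
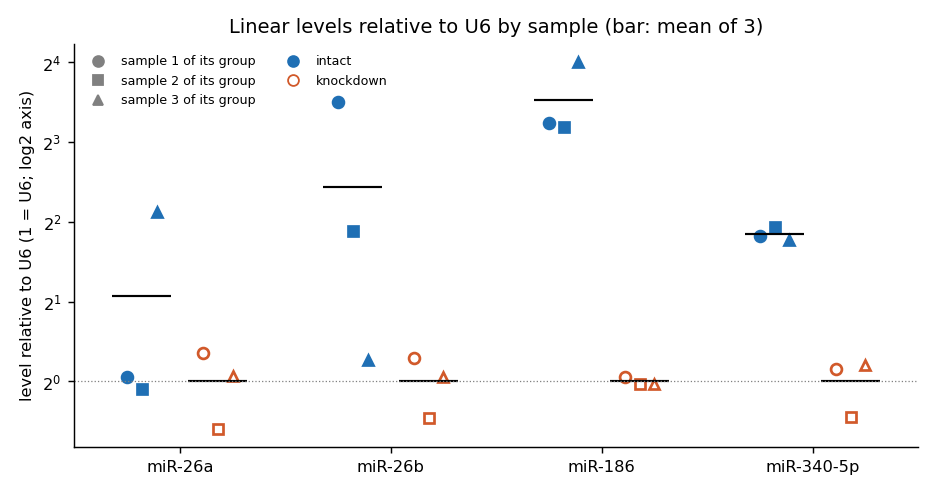
Linear level relative to U6 (y axis, log2-spaced, 1 = U6) of miR-26a, miR-26b, miR-186 and miR-340-5p in each of 3 intact (filled) and 3 knockdown (open) samples, with the group mean as a bar. The knockdown bars of the 4 miRNAs all sit at 1, while the intact means are 2.11 for miR-26a, 5.41 for miR-26b, 11.5 for miR-186 and 3.60 for miR-340-5p.

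Of the 3 restraining miRNAs, miR-186 and miR-340-5p fell in knockdown osteoclasts and miR-26a did not pass the test (limma, adjusted p under 0.05). Among all 95 measured assays, 80 fell (84.2%) and 0 rose by the same rule, so 2 of 3 members is no more than the background share. The falls of the members were smaller than that of the typical assay. The median difference over the 95 was -4.54 log2 units, and the members lay 1.06 (miR-186), 2.66 (miR-340-5p) and 3.79 (miR-26a) units above it. Their intact levels were lower than the median intact level of 4.26 as well. They differed from that median by -0.78, -2.41 and -3.56 units in the same order, which does not rank the miRNAs by abundance.

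miR-186 had levels of 3.24, 3.19 and 4.00 in intact samples 1 to 3 and of 0.055, -0.028 and -0.028 in knockdown samples 1 to 3. The groups did not overlap, with all knockdown samples lower, as in 78 of the 95 assays (82.1%). Intact sample 3 was the highest, and knockdown samples 2 and 3 had identical delta Ct values, which occurred in 6 of the 95 assays. The group means were 3.48 ± 0.46 and -0.0003 ± 0.048 (SD, n = 3 each). The knockdown SD was the smallest of all 95 assays, whose median was 0.80. The difference was -3.48 (SE 0.48, 95% interval -4.60 to -2.36, limma adjusted p = 0.000273), a level 11.1 times as high in intact as in knockdown samples. The authors' deposited table gives 11.132 for this ratio. In Ct, miR-186 crossed the threshold at 26.3 ± 0.183 cycles in the intact group and 30.3 ± 0.871 cycles in the knockdown group (SD, n = 3 per group), a delay of 4.085 cycles. In the order of differences it stood 31st of 95 counted from the highest. It lay between miR-30c (-3.42, SE 0.56) and miR-92a (-3.66, SE 0.45), from which it differed by less than its SE.

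miR-340-5p had nearly equal levels in the intact samples, at 1.83, 1.93 and 1.78, and stood at 0.156, -0.449 and 0.206 in the knockdown samples. The groups were again fully apart, as in 78 of the 95 assays (82.1%). Its intact SD of 0.079 was the fifth smallest of the 95, around a mean of 1.85, and the knockdown mean was -0.03 ± 0.36 (SD, n = 3). The difference was -1.88 (SE 0.47, 95% interval -2.96 to -0.79, limma adjusted p = 0.00574), a ratio of 3.67 between intact and knockdown. The authors' deposited table holds the same 3.67. Only 1 assay that passed had a smaller fall, miR-1839-5p at -1.69 (SE 0.59), which was also its neighbour on that side. The 3 intact Ct values were 27.5, 27.6 and 28.6 cycles, so the close agreement was one of levels after U6 had been subtracted.

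miR-340-3p, the other arm of the same hairpin, was listed as Null in all 6 samples. It had no Ct on plate 1, and no difference between the arms or between the groups can be given for it. The star strands miR-186* and miR-26b* on plate 2 were Null in 6 of 6 samples too. No source used here states the rule by which a well became Null.

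miR-26a had levels of 0.05, -0.093 and 2.12 in the intact samples and of 0.363, -0.591 and 0.07 in the knockdown samples. Intact samples 1 and 2 lay within the range of the knockdown samples, and only intact sample 3 stood above them. The means were 0.69 ± 1.24 and -0.05 ± 0.49 (SD, n = 3 each). The difference of -0.75 (SE 0.71, 95% interval -2.40 to 0.91) did not pass (limma adjusted p = 0.361). The interval runs from a knockdown level 5.29 times lower to one higher than intact, and it includes the difference of miR-340-5p. With the knockdown mean fixed at U6, it reflects the scatter of the deposited values and does not bound a fall in the cells. Without intact sample 3 the difference was -0.03 (SE 0.50, limma adjusted p = 0.953). The authors' deposited table gives a ratio of 1.677 for miR-26a, and that ratio rests on this 1 sample. Counted from the highest difference, miR-26a was 10th of 95. It lay between miR-210 (-0.33, SE 0.63) and miR-361 (-1.37, SE 0.68), neither of which passed. Some assays above it did not fall at all, miR-486 (0.49) among them. miR-210 had a knockdown level of 2.67, so its knockdown mean was not fixed at U6. Only 5 of the 95 assays had a lower intact level than miR-26a, which is an order of deposited values and not of abundance.

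miR-26b, the relative with the same seed, was measured in all 6 samples. Its levels were 3.50, 1.89 and 0.268 in intact samples 1 to 3 and 0.3, -0.464 and 0.061 in knockdown samples 1 to 3. Intact sample 3, the highest for miR-26a, was the lowest for miR-26b and lay within the knockdown range, so that the groups overlapped. Within a sample, the level of miR-26a minus that of miR-26b was -3.45 and -1.98 log2 units in intact samples 1 and 2 and 1.855 units in intact sample 3. In the knockdown samples the same subtraction gave 0.063, -0.127 and 0.009. Levels of different assays depend on their primers, so these values describe how the pair moved against each other and not which miRNA was more abundant. The difference of miR-26b was -1.92 (SE 0.83, 95% interval -3.84 to 0.003) and did not pass (limma adjusted p = 0.0589). Without intact sample 3 it was -2.73 (SE 0.66, limma adjusted p = 0.0127), and without intact sample 1 it was -1.11 (SE 0.73, limma adjusted p = 0.200). With the replicate number as a block miR-26b passed (limma adjusted p = 0.0383), where 86.3% of the 95 assays passed. It also passed without a reference (-2.53, limma adjusted p = 0.0314), where 84 of the 95 assays passed. With the control wells it passed too (-2.40, limma adjusted p = 0.0489), as did 86.3% of the assays. Centred on the measured miRNAs it turned to 2.56 (limma adjusted p = 0.0359), and after quantile normalization to 2.08 (limma adjusted p = 0.192). Intact sample 3 therefore moved the values of the related assays in opposite directions.

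**Figure D2:**
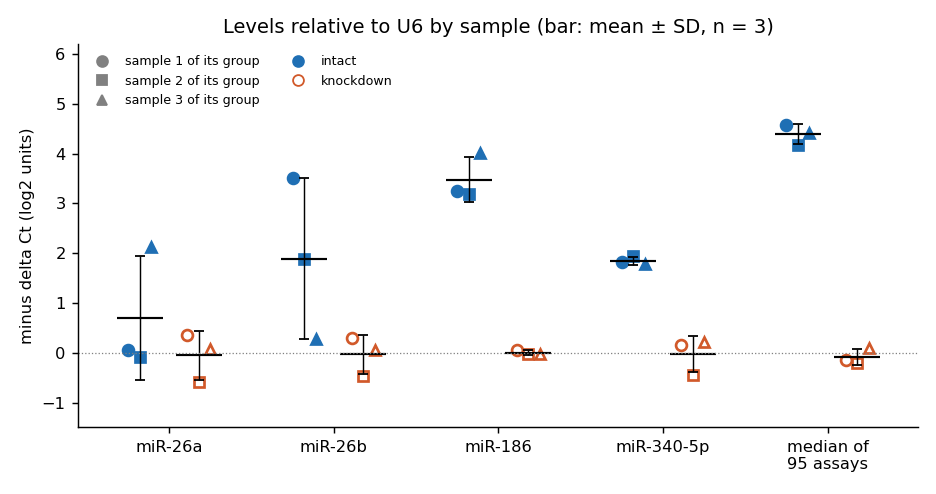
Level relative to U6 (y axis, minus delta Ct in log2 units) of miR-26a, miR-26b, miR-186, miR-340-5p and the median of the 95 measured assays in each intact (filled) and knockdown (open) sample, with mean ± SD (n = 3). The groups are apart for miR-186 and miR-340-5p, as in 78 of the 95 assays (82.1%). Intact sample 3 (filled triangle) is the highest intact sample for miR-26a at 2.12 and the lowest for miR-26b at 0.268.

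The median level over the 95 assays was 4.58, 4.18 and 4.41 in intact samples 1 to 3. The level of miR-186 minus this median was -1.34, -0.99 and -0.40 units. For miR-340-5p it was -2.75, -2.25 and -2.63 units, and for miR-26a -4.53, -4.27 and -2.28 units. All 3 members were thus below the middle assay in each intact sample. Levels of different assays depend on their primers, so this does not place the members by abundance. In the knockdown samples, with medians of -0.139, -0.201 and 0.096, every member lay within 0.502 units of the median.

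**Figure D3:**
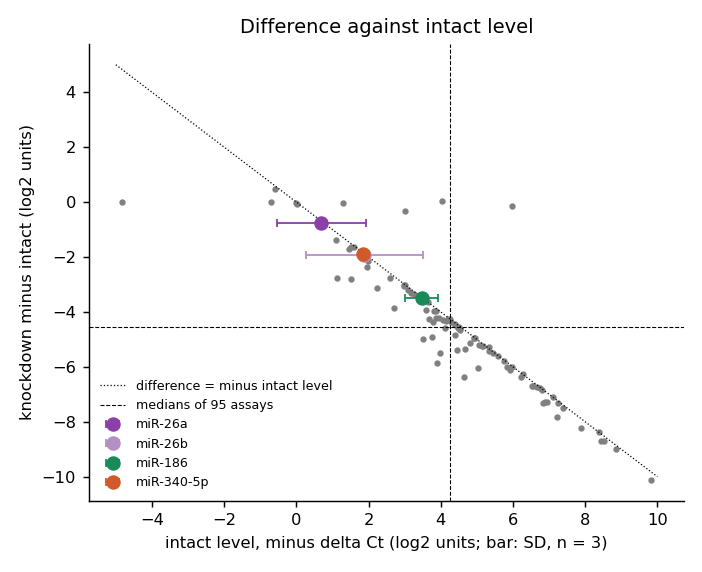
Difference between knockdown and intact (y axis, log2 units) against intact level (x axis, minus delta Ct in log2 units, bar: SD, n = 3) for the 95 measured assays. The members and miR-26b lie close to the dotted line where the difference is minus the intact level, and above the dashed line at the median difference of -4.54.

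Within a sample the members can be set against each other without U6, since they share plate 1. The level of miR-186 minus that of miR-26a was 3.19, 3.28 and 1.88 units in the intact samples, and the same subtraction gave -0.308, 0.563 and -0.098 in the knockdown samples. This gap changed by -2.73 units, with no overlap of the groups. The gap between miR-186 and miR-340-5p was 1.41, 1.26 and 2.22 units in intact and -0.101, 0.421 and -0.234 units in knockdown samples, a change of -1.60 units, also without overlap. Each of these had an exact two-sided permutation p of 0.1, the smallest that 3 against 3 allows, or 0.15 when adjusted over the 3 pairs. miR-340-5p minus miR-26a changed by -1.13 units, from 1.78, 2.03 and -0.345 to -0.207, 0.142 and 0.136, and the groups overlapped (exact permutation p = 0.4, adjusted 0.4). No pair could pass a threshold of 0.05 in this design. With both knockdown means fixed at U6, each change is close to minus the intact gap by construction, and the gaps do not rank the miRNAs by abundance. Without intact sample 3 the change of miR-340-5p minus miR-26a was -1.88 units, and it was -0.69 units without intact sample 2.

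**Figure D4:**
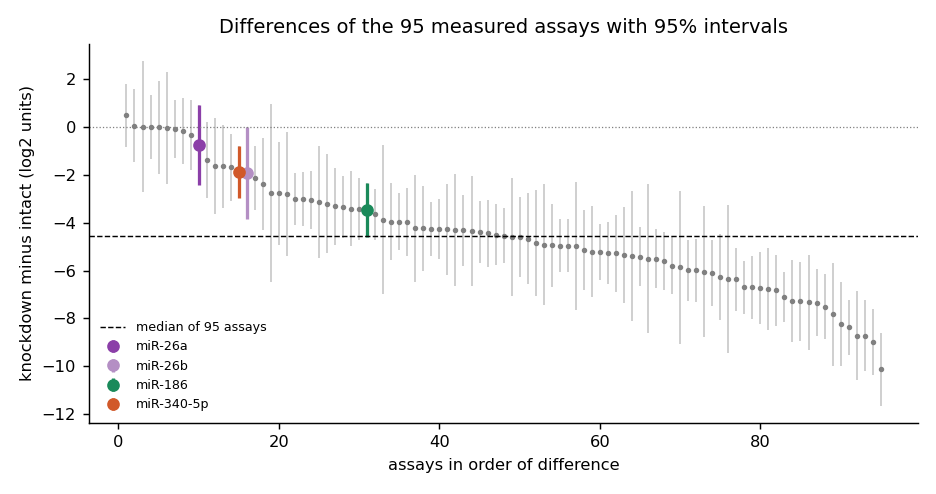
The 95 measured assays in order of their difference between knockdown and intact (y axis, log2 units relative to U6), with 95% intervals from limma. miR-26a (-0.75), miR-340-5p (-1.88), miR-26b (-1.92) and miR-186 (-3.48) lie above the dashed median of -4.54, and the intervals of miR-26a and miR-26b reach 0.

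The direction of the members depends on the reference. With the 4 unnamed control wells in place of U6, the differences were -3.96 for miR-186 (SE 0.94), -2.36 for miR-340-5p (SE 0.97) and -1.23 for miR-26a (SE 1.07), and the same 2 members passed in limma, as did 86.3% of all assays, all of them lower. Centring each sample on the mean of its 95 measured miRNAs took away a mean change of -5.09 log2 units without a reference, or -4.48 log2 units relative to U6 of plate 1. All 3 members then turned to positive values, which here say how far a member lies above that mean change. miR-26a stood at 3.74 (SE 0.70, limma adjusted p = 0.00500), miR-340-5p at 2.61 (SE 0.46, limma adjusted p = 0.00438) and miR-186 at 1.01 (SE 0.48, limma adjusted p = 0.145). Above the mean change 19 of the 95 assays passed (20.0%), and 19 passed below it (20.0%). After quantile normalization the values were 3.35 (SE 0.66) for miR-26a, 2.15 (SE 0.44) for miR-340-5p and 0.68 (SE 0.41) for miR-186. miR-26a and miR-340-5p passed there in limma (adjusted p = 0.0305 for both), where 8 of 95 assays passed above the mean change (8.42%) and 5 below (5.26%). With the knockdown means of 88 assays fixed at U6, an assay with a low intact level lies above the mean change by construction.

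**Figure D5:**
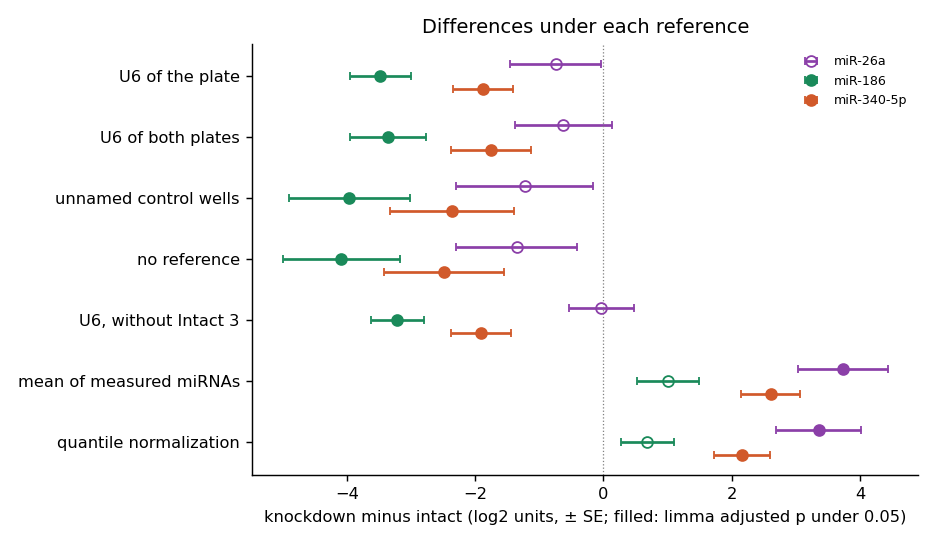
Difference between knockdown and intact (x axis, log2 units ± SE) of miR-26a, miR-186 and miR-340-5p under each reference or setting (y axis), filled where the limma adjusted p was under 0.05. The values are below 0 with U6, control wells or no reference, and above 0 with the mean of the measured miRNAs or quantile normalization, while miR-26a lies at -0.03 without intact sample 3.

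By the shape of their values over the 6 samples, miR-186 was most like miR-191 (Pearson r = 0.996), miR-92a (r = 0.996) and miR-181d (r = 0.991). miR-340-5p was most like miR-22 (r = 0.997), miR-122 (r = 0.996) and miR-1198 (r = 0.993). High values are common here, since most assays share the step between the groups and the same U6: the median r with the other 94 assays was 0.94 for miR-186 and 0.93 for miR-340-5p. For miR-26a that median was 0.42, and its closest assays were miR-668 (r = 0.795), miR-206 (r = 0.718) and miR-93 (r = 0.707). miR-668, with a knockdown level of 1.27, was not among the assays whose knockdown mean was fixed at U6. These r values describe 6 samples and carry no test.

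A list of 16 osteoclast-restraining miRNAs matched 28 assays of the array, arms and star strands included, and 5 of the 28 had values. These were the 3 members, miR-26b and miR-145, a miRNA of smooth muscle and stromal cells. miR-145 went from 3.82 ± 0.46 in the intact group to -0.16 ± 0.88 in the knockdown group (SD, n = 3 per group), or -3.97 (SE 0.61, limma adjusted p = 0.000485). In all, 3 of the 5 fell, where 84.2% of the 95 assays did, with a median difference of -1.92 and a median intact level of 1.88, against -4.54 and 4.26 over all 95 assays. All 5 had a difference above the overall median, though miR-145 was the only assay among them besides the members and miR-26b. The members and both lists were chosen with earlier results known, so these counts are no independent support for a pattern. The list of 12 osteoclast-promoting miRNAs had 22 assays and 5 with values, and 5 of 5 fell against the same 84.2%, with a median difference of -5.995 and a median intact level of 5.97. miR-148a differed by -8.71 units and miR-214, also one of the stromal markers below, by -7.33 units. miR-183 (-5.995), the myeloid miR-223 (-5.50) and miR-21 (-5.495), which represses Pdcd4, followed. Of these 5, 0 had a difference above the overall median. The lists were not tested against each other, and whether each miRNA belongs on its list was not tested either. With knockdown means fixed, the contrast is one of deposited intact levels.

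Markers of several cell types were measured in the same samples, including the myeloid lineage from which osteoclasts arise. Values were present for 4 of 7 myeloid, 4 of 7 epithelial, 5 of 6 stromal, 3 of 4 lymphoid, 3 of 3 erythroid, 2 of 4 muscle miRNAs and the liver miRNA miR-122. The median level of the epithelial markers was 7.18 to 8.27 in intact and -0.56 to 0.49 in knockdown samples, and that of the myeloid markers 4.43 to 5.46 and -2.10 to 1.01. In the intact samples it was 4.63 to 5.32 for stromal, 3.81 to 4.48 for lymphoid and 1.83 to 2.30 for erythroid markers. The erythroid markers were spread, with intact means of 3.495 for miR-144, 1.99 for miR-451 and -0.58 for miR-486. miR-486 did not fall (0.49, SE 0.57, limma adjusted p = 0.452). The stromal miR-199a-3p had the same group means, difference and SE as miR-24 (difference -4.95, SE 0.48). Whether these are separate measurements was not tested. Muscle markers stood at 2.06 to 3.63 and miR-122 at 6.68 to 7.03 in the intact samples. The part of other cells in the levels of miR-26a, miR-186 and miR-340-5p was not tested.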

How the data were processed

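Per the labels' protocols, RNA was extracted in Trizol, QuantiMir reagents made the cDNA, and the PCR ran for 40 cycles (ViiA7). The authors deposited Ct values (used here as a score without further scaling), delta Ct values on a log2 scale relative to U6, and a table of fold ratios, per the file headers. That Ct minus delta Ct is the Ct of 1 well per sample and plate was checked on the values. Well names of plate row E, turned into numbers by a spreadsheet, were restored.

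Assays needed a Ct under 35 in 3 or more samples, which all 95 measured assays met. Knockdown was compared with intact by limma 3.58.1 in R 4.3.3 (lmFit, eBayes with no trend or covariate). The test was two-sided, with p-values adjusted by Benjamini-Hochberg over the 95 and a threshold of 0.05. This fit was tested on simulated data before use. The simulation drew independent noise and fixed no knockdown means, so it does not show how the fit behaves on the deposited values. Member pairs were compared by exact permutation over samples. Read depth does not apply to PCR arrays, and the 3 samples per group limit the precision.

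Alternatives were no reference, control wells or both U6 wells as reference, centring, quantile normalization, a variance trend, a Ct limit of 30, no filter, linear means, the replicate block and leaving out each sample. The miRNAs named are the members, assays of the same hairpins, the 3 assays with the highest r for each member, neighbours in the order of differences and measured members of the lists. miR-24 is named because its values equal those of miR-199a-3p. The members and lists were chosen with earlier results of these data known. miR-26b's values without single samples were looked at after its levels were seen.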

Additional observations from a re-analysis of the deposited data

How the results depend on the processing

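The negative differences of miR-26a, miR-186 and miR-340-5p held in 14 of 16 alternatives each, with the same side of the threshold wherever a test was run. They turned positive in the other 2: centred on the measured miRNAs they were 3.74, 1.01 and 2.61, and after quantile normalization 3.35, 0.68 and 2.15. Centring subtracts a mean change of -4.48 relative to U6 of plate 1, which is larger than each fall. The count of assays that passed went from 80 to 38 with centring and 13 with quantile normalization. Leaving out 1 sample gave -1.14 to -0.03 for miR-26a, -3.62 to -3.21 for miR-186, -1.99 to -1.67 for miR-340-5p and 75 to 81 assays that passed. Relative to the median difference, the ranges were 3.39 to 4.59 for miR-26a, 0.86 to 1.40 for miR-186 and 2.44 to 2.98 for miR-340-5p, and the last was 2.30 after quantile normalization. The pairwise changes kept their sign in all 11 alternatives each, of which those with another reference well leave them equal by construction. Leaving out 1 sample gave -1.88 to -0.69 for miR-340-5p minus miR-26a, -3.18 to -2.48 for miR-186 minus miR-26a and -1.80 to -1.30 for miR-186 minus miR-340-5p.

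With the replicate number as a block, 82 assays passed, with limma adjusted p = 0.349 for miR-26a, 0.000757 for miR-186 and 0.0193 for miR-340-5p. Same-numbered samples correlated in their deviations from the group means at 0.025, 0.10 and 0.081, and 5 of 6 samples were most like their own number. These correlations were small, and the 5 of 6 was not set against a chance level. The sample labels show only a number in common, and whether same-numbered samples share a run or batch was not tested. The 3 samples per group limit the precision, and with knockdown means fixed at U6 the intervals of all 3 members describe only the scatter of deposited values.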
